A study of Mus musculus with 2 samples.

Results

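The LIF receptor and JAK-STAT genes were a set of 10 named mouse genes out of 22238 protein-coding symbols annotated on mm9. They comprised the ligand gene Lif, the receptor genes Lifr and Il6st, the kinase genes Jak1 and Jak2, the phosphatase gene Ptpn11, the transcription factor gene Stat3, the feedback inhibitor genes Socs2 and Socs3, and the kinase gene Pim1, a known STAT3 target. They were chosen by name, and every peak whose centre lay within 50 kb of any of their annotated transcript starts was counted as near the gene. In the mm9 list for the whole series, 13 of 5515 peaks met that rule. Binding of POU5F1, a pluripotency factor often named OCT4, was mapped by ChIP-seq. In this assay the DNA bound by a protein is recovered with an antibody and sequenced, and regions rich in reads are called as peaks. All libraries came from E14TG2a.4, a male embryonic stem cell line of mouse strain 129/Ola, labelled as embryonic, 3.5 day, with no treatment in the labels. There was 1 group, with 2 biological replicates, and both carried the same donor label, so the data describe a single cell line. The culture protocol was not analysed here, and the sources used here do not state whether the medium held LIF. The control experiment that the labels name was not analysed here either.

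Leukaemia inhibitory factor (LIF) binds LIFR, which pairs with gp130, the product of Il6st. The associated JAK kinases then phosphorylate STAT3, which enters the nucleus and activates its target genes, and this signal helps to keep mouse embryonic stem cells undifferentiated. SOCS3 binds gp130 and damps the signal, SOCS2 is a related inhibitor best known for restraining growth hormone signalling, and the phosphatase SHP2, encoded by Ptpn11, links gp130 to the MAP kinase pathway. POU5F1 recognises the octamer sequence and often binds next to SOX2 on a composite SOX and octamer element.

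The sequences below are a selection from the windows searched for motifs, picked for the matches they held. The share of all peaks with each motif is given with the motif results. Each is the 201 bases around a peak centre, on the plus strand of mm9, read from the NCBIM37 reference. The first pair held exact octamers (ATGCAAAT or its reverse complement), which are in capitals. They lay at chr13:113252704-113252904, upstream of Il6st, and chr15:7065782-7065982, upstream of Lifr.
Il6st: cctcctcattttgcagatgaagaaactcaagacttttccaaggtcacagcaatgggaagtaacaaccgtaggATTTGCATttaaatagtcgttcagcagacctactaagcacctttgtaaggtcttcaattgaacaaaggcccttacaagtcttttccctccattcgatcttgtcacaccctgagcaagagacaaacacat
Lifr: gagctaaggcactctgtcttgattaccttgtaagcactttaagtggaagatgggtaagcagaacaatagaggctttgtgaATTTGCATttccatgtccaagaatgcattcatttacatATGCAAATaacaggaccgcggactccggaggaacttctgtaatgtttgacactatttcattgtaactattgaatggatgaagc
The next 3 held no exact octamer, and their capitals mark the stretch nearest to the composite element, with 3 mismatches in each. They lay at chr17:29604458-29604658, upstream of Pim1, at chr19:29360244-29360444, within Jak2, and at chr10:94918920-94919120, upstream of Socs2. The Ptpn11 peak also held a stretch with 3 mismatches, and its window is not printed.
Pim1: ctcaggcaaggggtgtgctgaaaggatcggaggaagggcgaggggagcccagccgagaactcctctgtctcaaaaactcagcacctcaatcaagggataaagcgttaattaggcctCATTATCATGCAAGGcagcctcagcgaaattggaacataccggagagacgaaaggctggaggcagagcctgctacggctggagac
Jak2: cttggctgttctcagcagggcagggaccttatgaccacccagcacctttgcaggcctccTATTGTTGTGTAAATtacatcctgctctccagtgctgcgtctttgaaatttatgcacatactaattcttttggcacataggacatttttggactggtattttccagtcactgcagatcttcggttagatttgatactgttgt
Socs2: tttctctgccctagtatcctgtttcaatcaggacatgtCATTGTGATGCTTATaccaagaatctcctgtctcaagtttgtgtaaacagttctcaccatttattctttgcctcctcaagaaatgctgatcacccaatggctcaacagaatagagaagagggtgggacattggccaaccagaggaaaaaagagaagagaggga

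In the whole-series list, 7 of the 10 genes had a peak within 50 kb, where 27.3% of all protein-coding symbols did. The 7 were Lifr, Il6st, Jak2, Ptpn11, Socs2, Socs3 and Pim1, and the 3 without were Lif, Jak1 and Stat3. By role, both receptor genes had peaks (4 in all), as did 1 of 2 JAK genes (1 peak), the phosphatase gene (1 peak), both feedback genes (5 peaks) and the target gene (2 peaks), while the ligand gene and the transcription factor gene had 0. Annotated mm9 starts per gene ran from 1, as for Il6st, to 13 for Socs2 and 14 for Stat3, so the stretch searched differed between genes. The genes were proposed with earlier results of these data in view, so these counts are descriptions and no test was made on them.

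The deposited signal of a peak is the authors' value, whose scaling is not stated, so it was read only within a list. The 13 peaks had a median signal of 6.75, against 5.58 over all 5515, and 10 of the 13 were above that overall median. For scale, the strongest peaks near Pou5f1, Sox2 and Nanog, 3 pluripotency factor genes, had signals of 27.9, 19.09 and 9.96 in the same list. Their ranks were 4, 35 and 430, where rank 1 is the highest signal and tied peaks share the better rank. Of the 13 peaks near the pathway genes, only the strongest Il6st peak ranked above the Nanog peak. Bulk ChIP-seq gives 1 value per peak over all cells, so weak binding in every cell and strong binding in fewer cells cannot be told apart.

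**Figure D1:**
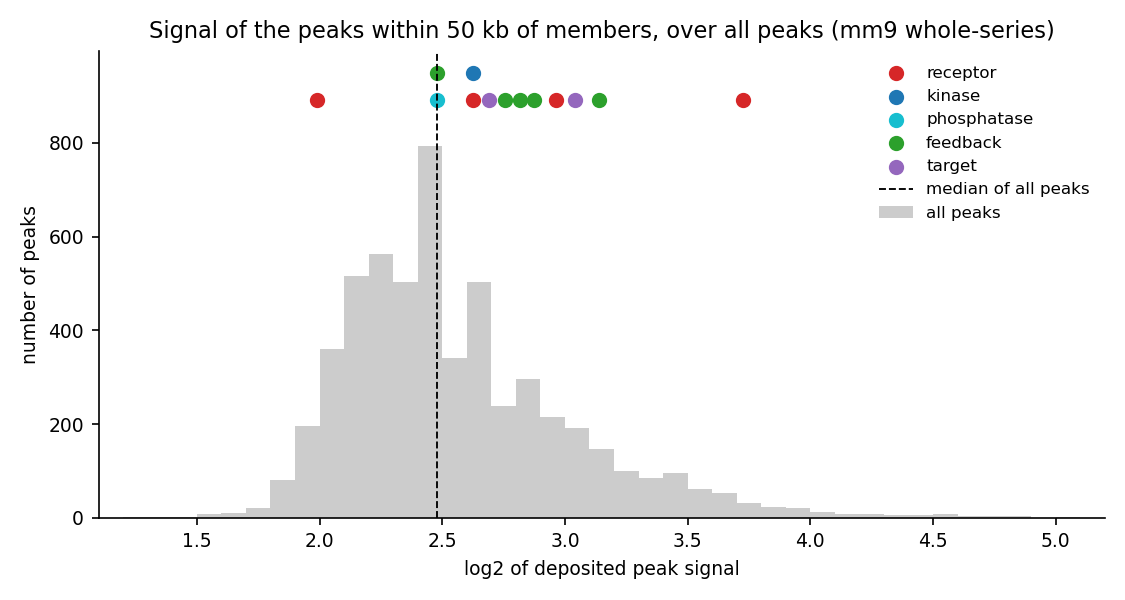
Histogram of the deposited signal of all 5515 whole-series mm9 peaks (horizontal axis, log2 of signal; vertical axis, number of peaks), with the 13 peaks near the genes as points above it, coloured by role, and the overall median as a dashed line. The Il6st peak at 13.22 is the rightmost point and the Lifr peak at 3.97 the leftmost, and 10 of the 13 lie right of the line.

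The receptor genes carried the highest and the lowest signals of the set. The Il6st peak at chr13:113252525-113253084 lay in intergenic sequence 12.4 kb upstream of the annotated start and had a signal of 13.22 in the whole-series list, rank 127. It had a signal of 14.31 (rank 42 of 1330) in the replicate 1 list and 21.92 (rank 140 of 6324) in the replicate 2 list. It was thus high in both replicates. A weaker Il6st peak lay 34.6 kb upstream at chr13:113230490-113230816, with a whole-series signal of 6.17 (rank 1872) and a replicate 2 signal of 12.09 (rank 1108). Replicate 1 had no peak there.

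Lifr had a pair of intergenic peaks whose centres were 1053 bp apart. The stronger, at chr15:7065614-7066150 and 13.7 kb upstream of the first mm9 start, had a signal of 7.81 (rank 966) in the whole-series list and 13.62 (rank 753) in replicate 2. The weaker, at chr15:7066717-7067154, had a signal of 3.97 (rank 5202) and 5.69 (rank 6203) in the same lists, near the bottom of both. Neither overlapped a replicate 1 peak.

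Jak2, which encodes a receptor-associated tyrosine kinase, had 1 peak inside its own intron, 34 kb downstream of its start, at chr19:29360155-29360534. Its signal was 6.17 (rank 1872) in the whole-series list and 9.83 (rank 1996) in replicate 2, and replicate 1 had none. Jak1, which encodes the JAK most tied to gp130, had no peak within 50 kb in any of the thresholded lists. The closest, at chr4:101001506-101001838, fell just outside, 63.8 kb upstream, with a whole-series signal of 6.46 (rank 1623). The Ptpn11 peak at chr5:121593112-121593441 lay in an intron of the gene, 48.1 kb downstream of the most upstream protein-coding start. Its nearest annotated start, 0.368 kb away, was that of a processed transcript inside the gene. Its signal was 5.57 (rank 2793), just under the list median, and replicate 2 gave 9.16 (rank 2504). The replicate 2 list alone held a second Ptpn11 peak, 21.6 kb upstream at chr5:121662881-121663098, with a signal of 7.56 (rank 3969), nearest to the ribosomal protein gene Rpl6.

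Lif and Stat3 were the genes at either end of the pathway, and neither had a whole-series peak. Lif had peaks in the mm9 list of replicate 2 alone, with a signal of 8.31 (rank 3163) 4.44 kb upstream at chr11:4153004-4153231 and 6.8 (rank 4994) 18.1 kb upstream at chr11:4139324-4139532. The second of these lay in coding sequence of Osm, the neighbouring gene for the related cytokine oncostatin M. Stat3 had 0 peaks within 50 kb in each of the 5 thresholded lists.

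The feedback genes held 5 of the 13 peaks. None of the 5 overlapped a replicate 1 peak, where 22.7% of all whole-series peaks did, and 5 peaks are too few to differ from that share. On mm10, the relaxed replicate 1 list, which holds peaks and background, had entries at optimal peaks near both genes. They ranked 685 at 25.9 kb upstream of Socs3 and 1123 at 44.1 kb upstream of Socs2. The missing overlap on mm9 therefore does not show that replicate 1 lacked signal near these genes. Socs2 had 4, more than any other gene of the set. Its strongest, at chr10:94923655-94924272, lay 44.1 kb upstream with a signal of 8.81 (rank 583) and a replicate 2 signal of 15.87 (rank 466). That peak was nearer to the start of Mrpl42, a mitochondrial ribosomal protein gene, at 40.6 kb. The next, at chr10:94918746-94919294 and 39.2 kb upstream, had a signal of 7.34 (rank 1095) and a replicate 2 signal of 11.34 (rank 1325).

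The other Socs2 peaks lay downstream of and at the gene. The downstream one, at chr10:94816761-94817124, had a signal of 7.05 (rank 1227). It counted as near Socs2 only through the start of a retained-intron transcript 38.7 kb away, was 62.9 kb from the most upstream coding start, and was nearest to Cradd at 30.2 kb. The last, at chr10:94877976-94878327, lay 0.033 kb from a protein-coding start of Socs2, inside an intron of the gene, with a signal of 5.58 (rank 2471). It was the only one of the 13 within 1 kb of a protein-coding transcript start. Socs3 had 1 peak, at chr11:117857365-117857746, with a signal of 6.75 (rank 1402) and a replicate 2 signal of 11.34 (rank 1325). It was 26.2 kb upstream of Socs3, within an intron of Pgs1, which encodes a phosphatidylglycerophosphate synthase, and its centre was 4.55 kb from a Pgs1 start.

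Pim1, which encodes a serine/threonine kinase, had the other site that both replicates called. That peak, at chr17:29604385-29604732 and 23.2 kb upstream, had a signal of 8.22 (rank 764) in the whole-series list. It lay within an intron of Gm16912, and the nearest protein-coding gene's start was that of Pim1. The same site had a signal of 6.84 (rank 665) in replicate 1 and 12.85 (rank 908) in replicate 2. A second peak lay in a Pim1 intron, 3.72 kb downstream of the start, at chr17:29631285-29631670, with a signal of 6.46 (rank 1623) and a replicate 2 signal of 12.09 (rank 1108). Beyond 50 kb, a stronger peak lay 91.4 kb upstream at chr17:29536117-29536550, with a signal of 10.87 (rank 280), and it was called in replicate 1 at 8.09 (rank 351) and in replicate 2 at 18.14 (rank 300). Its nearest gene was Fgd2, at 22.9 kb. A further peak 85.1 kb upstream had a signal of 6.75.

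**Figure D2:**
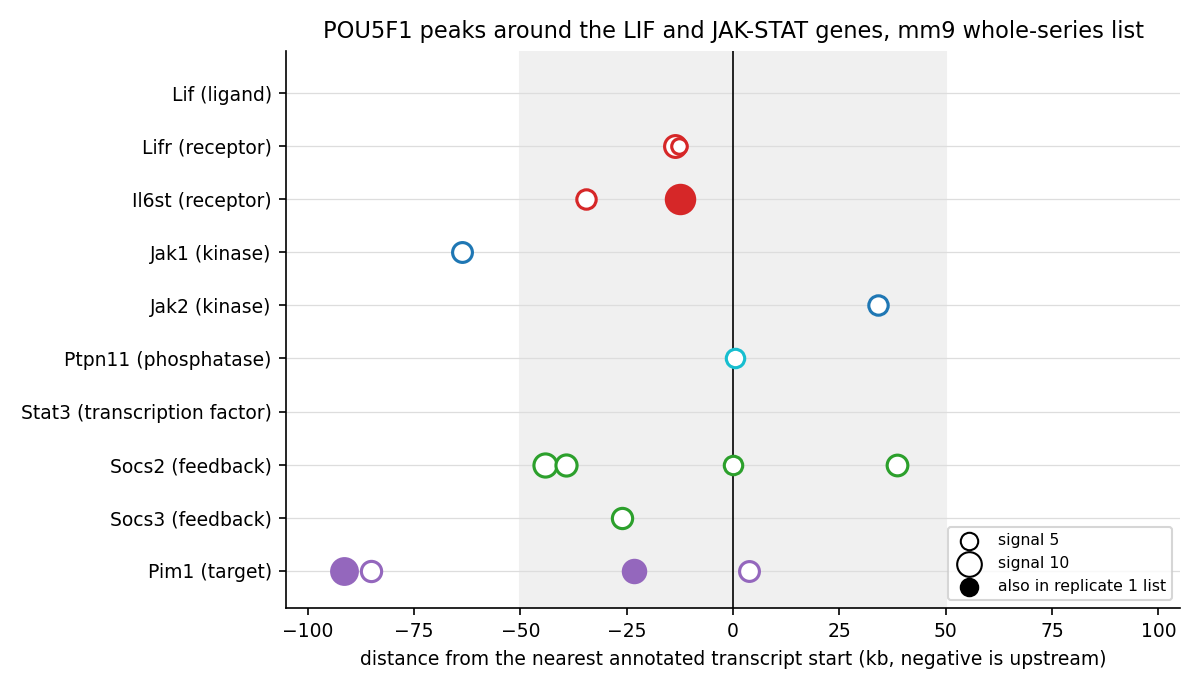
Whole-series mm9 peaks within 100 kb of each gene (rows), by distance in kb from the nearest annotated transcript start, with symbol size for deposited signal, filled symbols for peaks also in the replicate 1 list and the 50 kb window shaded. Peaks lie on both sides of the Socs2 and Pim1 starts and upstream of Il6st and Lifr, and none lies in the shaded window for Lif, Jak1 and Stat3.

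The count of genes changed with the distance allowed. Within 10 kb it was 3 (Ptpn11, Socs2 and Pim1), against 8.65% of all symbols. The Ptpn11 peak was counted there through a processed-transcript start, and lay 48.1 kb from the most upstream coding start. The strongest Il6st peak fell outside 10 kb on mm9, at 12.4 kb, but lay 1.51 kb from the RefSeq start on mm10. Within 25 kb the count was 5, against 16.7%, and within 100 kb it was 8, against 43.3%, with Jak1 as the addition. Counting from the most upstream protein-coding start alone gave the same number of genes, 7, against 25% of symbols. Peaks with a deposited −log10 p of at least 10 lay within 50 kb of 6 genes, against 16.6%, and the gene without such a peak was Ptpn11. When each peak was given to the gene with the nearest start, 7 genes received one, against 17.5%, with Jak1 in and Socs3 out. Of the 13 peaks, 10 were nearest to their pathway gene and 3 to another gene. All 3 were counted for the feedback genes, with Mrpl42 or Cradd nearer than Socs2 and Pgs1 nearer than Socs3. Among the 13, 7 were intergenic and 6 intronic, against 56.2% and 38.9% of all peaks, which were not limited to 50 kb from a gene.

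The replicate lists differed in length, and the counts near the genes differed with it. In the replicate 1 list of 1330 peaks, 2 of 10 genes (Il6st and Pim1) had a peak, against 8.15% of symbols. In the replicate 2 list of 6324 peaks, 8 of 10 did, with 16 peaks, against 30.1%. Of the 13 whole-series peaks, 2 overlapped a replicate 1 peak, against 22.7% of all whole-series peaks, and 13 overlapped a replicate 2 peak, against 86.7%. The list lengths and the number called are not a measure of depth, which is unknown. When replicate 2 was kept to its strongest 1330 peaks, 6 of the 13 overlapped one, against 24.1% of all whole-series peaks. That limit fell among peaks tied at a signal of 11.34, and with all tied peaks kept (1561 in all) the count was 9 of 13, against 28.2%. The 3 added were 2 Socs2 peaks and the Socs3 peak.

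On mm10 the authors also deposited peaks selected by the irreproducible discovery rate (IDR), which scores each peak by how well its ranks match between 2 lists. In the optimal IDR list of 3994 peaks, 7 of 10 genes had a peak within 50 kb, with 11 peaks, against 19.5% of symbols. The conservative list of 2676 peaks held peaks near 6 of 10, against 13.7%. The genes in the optimal list were those of the whole-series mm9 list, and the conservative list lacked Ptpn11 as well. The median signal of the 11 optimal peaks was 41.6, against 37.3 over the list, and 8 of the 11 were above it.

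The Il6st peak was again the strongest of the set, with a signal of 132.8 (rank 95) at chr13:112462488-112462622 on mm10. It lay 1.51 kb upstream of the RefSeq start on that build, against 12.4 kb from the mm9 annotation's start, as the annotations of the builds give different starts for the gene. The entry overlapping it ranked 52 in the relaxed list of replicate 1 and 161 in that of replicate 2, each of 300000 entries of peaks and background. The second Il6st peak was weaker, with a signal of 38.3 (rank 1904), and its ranks were 15766 in replicate 1 and 2562 in replicate 2. The Lifr peak at chr15:7115715-7116050 had a signal of 57.5 (rank 827), with ranks of 2417 in replicate 1 and 639 in replicate 2. Lifr has a further RefSeq start upstream, from which this peak lay 25.3 kb downstream.

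The strongest Socs2 optimal peak, 44.1 kb upstream, had a signal of 66.7 (rank 582), and the 2 other Socs2 peaks within 50 kb had 33.7 and 33.5. Pim1 had signals of 63.3 (rank 663) for the peak 23.2 kb upstream and 54.8 (rank 926) for the one 1.46 kb downstream of a start. The Socs3 peak had a signal of 41.6 (rank 1615), the Jak2 peak 38.8 (rank 1855) and the Ptpn11 peak 36.9 (rank 2027). By strongest peak, the order therefore ran from Il6st through Socs2, Pim1, Lifr, Socs3 and Jak2 to Ptpn11, with no replicate error on a list that gives 1 value per peak. Just outside 50 kb, the Jak1 peak 63.8 kb upstream had a signal of 42.4 (rank 1552) and a Socs2 peak 63.0 kb downstream had 29.7 (rank 2893).

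The replicate ranks of these sites were not alike for all genes. The relaxed lists were derived from 2 undescribed input files for replicate 1 and 1 for replicate 2, per their description files, and the part of that difference in the ranks was not tested. The Pim1 peak 23.2 kb upstream ranked 687 in replicate 1 and 793 in replicate 2, and the Pim1 peak near the start ranked 877 and 940 in the same order. Socs3 ranked higher in replicate 1, at 685, than in replicate 2, at 2672. The Ptpn11 peak ranked 24324 in replicate 1 and 2342 in replicate 2, and the Socs2 peak at the gene ranked 80364 and 1991. Over the 11 peaks, the median rank was 2417 in replicate 1 and 1991 in replicate 2, and 7 ranked better in replicate 2. Over the 3704 optimal peaks found in both relaxed lists, the medians were 3146 and 1966.5, and 2396 ranked better in replicate 2. The shares were 63.6% of the 11 and 64.7% of all.

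**Figure D3:**
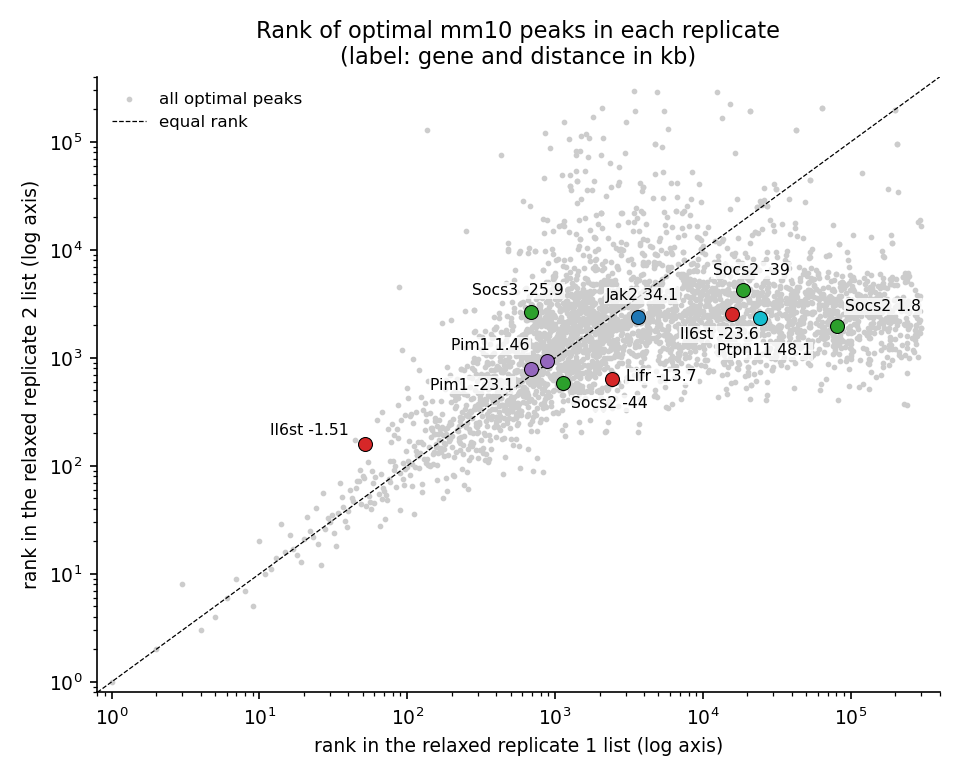
Rank in the relaxed mm10 list of replicate 1 (horizontal, log axis) and of replicate 2 (vertical, log axis) for the 11 optimal peaks near the genes, labelled with distance in kb, over all optimal peaks in grey. Il6st sits at the strong end of both replicates (52 and 161), and the Ptpn11 and Socs2 peaks with replicate 1 ranks of 24324 and 80364 lie far right of the dashed line of equal rank.

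The relaxed lists gave a value for every gene, also for the 3 with no thresholded peak in the whole-series list. The best entry within 50 kb of Il6st had rank 52 in replicate 1, and 0.39% of genes had a better one, and it had rank 161 in replicate 2, with 1.07% better. For Stat3, the best entries ranked 9696 and 10621, with 43.6% and 45.1% of genes better, and lay at different sites in the replicates. Jak1 ranked 12221 and 20191, with 50.2% and 65.7% of genes better. The medians over genes were 12142 in replicate 1 and 12267 in replicate 2. Stat3 was thus slightly better than the median gene in both replicates. Jak1 was about at the median in replicate 1, just past it, and worse in replicate 2. Its value depended on the window, as the entries overlapping the Jak1 peak 63.8 kb upstream ranked 2052 in replicate 1 and 1757 in replicate 2. Lif ranked 27944 in replicate 1 and 4032 in replicate 2, with 74% and 20.2% of genes better, so its replicates were far apart.

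The same site was the best entry of both replicates for 6 genes, namely Lifr, Il6st, Jak2, Socs2, Socs3 and Pim1. For these, the share of genes with a better entry was between 0.39% and 20.6% in replicate 1 and between 1.07% and 14.2% in replicate 2. Lif, Jak1, Ptpn11 and Stat3 had different best sites in the replicates. For Ptpn11, the share of genes with a better entry was 62% in replicate 1 and 12.7% in replicate 2.

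**Figure D4:**
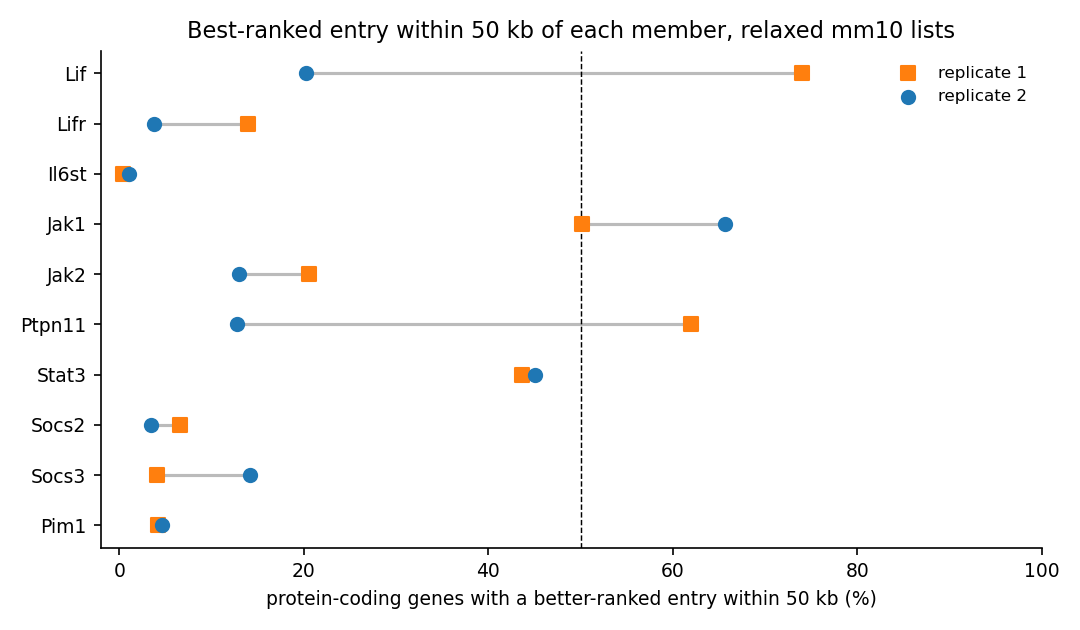
Percent of protein-coding genes with a better-ranked entry within 50 kb in the relaxed mm10 lists, for each of the 10 genes (rows), with a square for replicate 1, a circle for replicate 2 and a dashed line at 50%. Il6st has the lowest value in both replicates (0.39% and 1.07%), and Lif and Ptpn11 have the widest gaps between replicates.

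Motifs were searched on both strands within 100 bp of each peak centre. The exact octamer was in 2 of the 13 peaks, the strongest Il6st and the strongest Lifr peak, against 13.4% of all peaks. In the Il6st sequence printed above it lay on the minus strand, 24 bp from the peak centre. The Lifr sequence held a pair, on opposite strands, 16 and 22 bp from the centre. The other 11 peaks held 0, and counts this small do not separate the roles. With 1 mismatch allowed, 8 of the 13 held an octamer, near Il6st, Jak2, Lifr, Pim1 and Socs2, against 53.7% of all peaks.

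The composite element with at most 2 mismatches was in 0 of the 13 peaks, against 9.30% of all. Its best match had 3 mismatches in 5 peaks, 4 in 4 peaks and 5 in 4 peaks. Over all peaks, 19.3% had a best match with 3 mismatches, 29.5% with 4 and 24.7% with 5. With up to 3 mismatches allowed, the element was thus in 5 of the 13, against 28.6% of all peaks. The 3-mismatch sites below are printed with capitals where a base fits the element.
Lifr site: CATgGaaATGCAAAT
Pim1 site: CATTaTCATGCAAgg
Jak2 site: tATTGTTgTGtAAAT
Ptpn11 site: CATTGTTATGCgtgT
Socs2 site: CATTGTgATGCttAT
The Lifr site held the whole octamer and departed from the SOX part, and the Ptpn11 and Socs2 sites held the whole SOX part and departed from the octamer.

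Of the other motifs, the SOX sequence (CATTGT) was in 3 of the 13 peaks, near Lifr, Ptpn11 and Socs2, against 19.1% of all peaks. The strict STAT sequence (TTCCNGGAA, where N is any base) was in 0 of 13, against 1.03%, and the looser form (TTCNNNGAA), which includes the strict one, in 0 of 13, against 6.80%. The MORE element, an octamer-related palindrome bound by POU dimers, was in 0 of 13, against 0.308%. An ESRRB sequence (TCAAGGTCA) was in 0 of 13, against 1.40%, and a KLF sequence (GGGTGTGG) in 0 of 13, against 2.43%. The SOX sequence and the octamer form the parts of the composite element, so those searches overlap. Median GC content of these windows was 44.3% for the 13 peaks, with a range of 39.8 to 60.2%, against 46.3% over all peaks.

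Another 39 genes of the pathway were counted in the same way. A whole-series peak lay within 50 kb of 12 of them, which is 30.8%, beside the 27.3% of all symbols. Peaks were near 2 of 4 other receptor genes, 3 of 6 other ligand genes and 1 of 5 kinase and signalling genes. They were near 2 of 10 feedback genes, 4 of 8 further STAT3 target genes and 0 of 6 other STAT genes. For the STAT3 targets the count was 2 of 8 in each replicate list. It was 2 of 8 in the optimal list and 3 of 8 in the conservative list. Counts this small do not separate the roles. The STAT genes stayed at 0 in all 5 thresholded lists, as did Stat3. The replicate 1 list had peaks near 7 of the 39, against 8.15% of all symbols, and the replicate 2 list near 12, against 30.1%. On mm10 the optimal list had peaks near 8, against 19.5%, and the conservative list near 8, against 13.7%.

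The 6 of these genes with the highest signals included stronger peaks than any near the 10. Il11ra1, which encodes the interleukin 11 receptor chain, and Cntfr, the ciliary neurotrophic factor receptor chain, shared 1 peak with a signal of 25.55 (rank 9) at chr4:41653948-41654620. It lay 7.26 kb downstream of Il11ra1 and 10.2 kb upstream of Cntfr. It was nearest to 2810432D09Rik, and had a signal of 18.66 in replicate 1 and 46.86 in replicate 2. The optimal mm10 list had a peak of signal 300.6 (rank 10) 10.1 kb upstream of Cntfr. Neither mm10 list had a peak within 50 kb of Il11ra1, so that assignment held on mm9 only. Pias3, which encodes an inhibitor of activated STAT3, had a peak of signal 18.21 (rank 40) 30.0 kb away, nearest to Polr3c. Mcl1, an anti-apoptotic gene, had 9.1 (rank 533), Gab1, an adaptor gene, 8.52 (rank 679), and Tfcp2l1, a pluripotency regulator known as a STAT3 target, 7.34 (rank 1095) 2.36 kb upstream. All of these 6 genes had a peak in both replicate lists, as Il6st and Pim1 did among the 10, with Il11ra1 and Cntfr sharing 1 peak. Of all symbols, 8.15% had a replicate 1 peak and 30.1% a replicate 2 peak within 50 kb. The 6 were picked by whole-series signal in the same data, so their presence in both lists is not separate support.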

How the data were processed

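POU5F1 ChIP-seq was measured in 2 biological replicates of 1 cell line. The authors deposited peak lists on mm9 and mm10, per the file headers in their description files. The signal of each peak was deposited by the authors with no stated scaling, and the mm9 lists also give a −log10 p-value deposited by the authors, none below 5. Not given in the sources used here are the aligner, the caller, the IDR cutoff, and how replicates were combined in the whole-series list. No read counts were used, so depth is unknown and no interval is given.

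Peaks were assigned to genes by peak centre, with GENCODE M1 starts on NCBIM37 (mm9) and RefSeq starts on GRCm38 for mm10. Coordinates were never converted between builds. RefSeq strands came from the promoter table or, failing that, from GENCODE M1 by symbol, and 361 genes with neither were left out. Motifs were searched on mm9 only. The composite element was CATTGT, a pyrimidine and ATGCAAAT with up to 2 mismatches, and MORE was ATGCAT repeated. Python 3.11.15, numpy 2.4.6 and matplotlib 3.10.9 were used, and the counting steps were tested on simulated data. The members and lists were chosen with earlier results of these data known. All 10 genes were named, with the 6 other pathway genes of highest signal, the genes nearest to members' peaks, and Pou5f1, Sox2 and Nanog for scale. No test was made, since there was 1 group.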

Additional observations from a re-analysis of the deposited data

How the results depend on the processing

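Of 64 alternative values, 50 stayed close to the main ones and 14 moved. Close was a wide label, as 5 genes against 7 and 9 peaks against 13 were counted so. Some of the 50 were motif counts that stayed at 0, which says little with 13 peaks. Genes with a whole-series peak numbered 7, but 3 within 10 kb. Taking each replicate's own list alone gave 2 to 8 genes, with 2 in replicate 1. Peaks near the genes numbered 13, but 3 within 10 kb, 7 within 25 kb and 7 in the conservative list, and 2 to 16 by replicate list. Of the 13 peaks, 13 overlapped replicate 2, but 6 when it was kept to as many peaks as replicate 1, or 9 with peaks tied at the limit kept, a setting chosen after the data were seen. The composite element was in 0 peaks with 2 mismatches and in 5 with 3 (28.6% of all peaks). The octamer was in 2 peaks exactly and in 8 with 1 mismatch (53.7%). The loose STAT sequence moved to 1 peak with 250 bp or the whole peak (15.8% and 12.9% of all peaks), the KLF sequence to 1 (5.78% and 4.57%), and the SOX sequence to 1 with 50 bp (12.0%). The cause was not tested. Counting from any protein-coding start, chosen after the data were seen, gave 7 genes and 12 peaks. Depth is unknown, so a missing peak does not show that binding is absent. No paired analysis was possible because there was 1 group and no test.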
